A study of Drosophila melanogaster with 15 samples.

Results

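Short introns, defined here as splice junctions that span 40 to 100 bp, were taken from a table of junction reads from Drosophila heads. A junction was kept when it had at least 150 reads over the 15 libraries and was listed with a single gene. Of the 1105894 junctions in the table, 12651 met this rule, and they lie in 4991 genes. For comparison, 6582 junctions longer than 100 bp and shorter than 1000 bp, called intermediate, and 4024 of 1000 bp or more, called long, passed the same minimum with a single gene, and 11 were shorter than 40 bp. The readout was the number of reads that cross the junction per 1000 reads counted on the gene in the same library.

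The libraries come from heads of adult flies in which a component of the spliceosome was knocked down in the eye. GMR>prp4-RNAi flies (replicates 6 to 10) carry the eye driver GMR and an RNAi transgene against *prp4*, GMR>prp8-RNAi flies (replicates 11 to 15) carry GMR and an RNAi transgene against *prp8*, and GMR/+ flies (replicates 1 to 5) carry the driver alone. Because GMR/+ flies have no RNAi transgene, effects of the inserted transgene or of its strain cannot be told apart from those of the knockdown. Both transgenes are labelled GD, all flies were 3 to 5 days old, and all were frozen at ZT12 after 3 or more light:dark cycles with phases of 12 h. The time is that of the labels, and the study's text gives an earlier one in one place. GMR drives expression in the developing and adult eye, whereas RNA was taken from whole heads, so cells without the driver contribute to every value, and fewer cells of a type cannot be told apart from less RNA per cell. Below, the values of single libraries follow the order of the replicate numbers, so that the fourth GMR>prp8-RNAi value is replicate 14.

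Most introns of Drosophila are short. In such introns the splice sites are thought to be paired across the intron itself (intron definition), whereas long introns with short exons between them are thought to be recognized across the exon. In either case the U4/U6.U5 tri-snRNP joins the assembling spliceosome before catalysis: Prp8 is the large U5 protein at the catalytic center, and Prp4 kinase phosphorylates other tri-snRNP proteins as the complex is activated. A read across a junction is evidence of a spliced molecule, and a junction read per gene read depends on how much of the gene's RNA has that intron removed, on the length of the gene's transcripts and on which isoforms are present.

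Lengths of the short introns were narrowly distributed. The shortest had 42 bp, the median was 62 bp with quartiles of 58 and 68 bp, and 62 bp was the most frequent length with 835 introns. Between 51 and 70 bp lay 10210 introns, or 80.7%, whereas 78 had 50 bp or less and 408 had 91 to 100 bp. Division of the length by 3 left a remainder of 0 in 4136 introns, of 1 in 4277 and of 2 in 4238. A single short intron was found in 2033 of the genes, 10 or more were found in 78, and *dp*, which encodes a giant extracellular matrix protein, had 45.

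**Figure D1:**
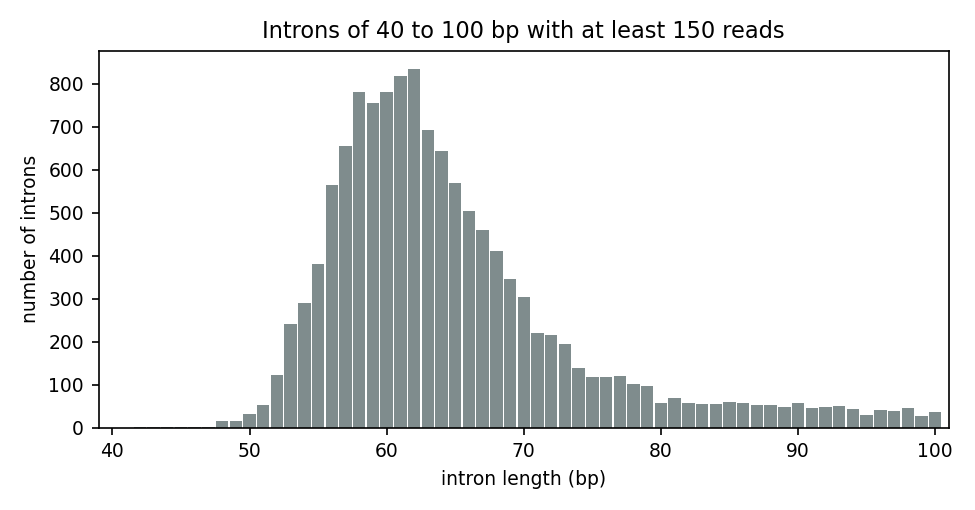
Number of short introns (y axis) at each length in bp (x axis), for the 12651 introns with at least 150 reads in all. The distribution peaks at 62 bp with 835 introns and has a long, low tail up to the limit of 100 bp.

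Nearly all of them are known introns. Of the 12651, 12584 (99.5%) are introns of the Ensembl annotation of the BDGP6 genome, and 12012 (94.9%) lie in coding sequence in every transcript that has them. Only 94 were confined to 5′ UTRs, 63 to 3′ UTRs and 15 to noncoding transcripts, and 399 were coding in some transcripts and UTR in others. Every annotated transcript that spans the position splices out 11745 of them (92.8%), a set called constitutive here. For 459, another transcript of the gene has the whole intron inside an exon, and 305 share an end with another junction of the gene. They were spread over 3R (3223), 2R (2862), 2L (2218), 3L (2210), X (1973) and the small chromosome 4 (165).

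The 67 junctions outside the annotation had 152 to 7787 reads, and 28 of them share an end with another junction. The most read were a 42-bp gap in *ninaE* (3R, 19887833 to 19887874), which encodes the main rhodopsin of the outer photoreceptors, with 7787 reads, a 45-bp gap in *vig* (2L, 15067485 to 15067529) with 4136, and 61 bp in CG7834 (3R, 29801867 to 29801927) with 3760. The shortest junctions, of 42 bp in *ninaE*, *rdhB* and *vig* and of 43 bp in *l(2)k09913*, all belong to this group. In *ninaE*, the 42-bp gap had 0.534 ± 0.0578, 0.602 ± 0.0675 and 0.539 ± 0.0239 reads per 1000 gene reads in GMR>prp4-RNAi, GMR>prp8-RNAi and GMR/+ heads (SD, n = 5 each), against means of 48.57 to 75.25 at the annotated introns of the same gene in GMR/+ heads.

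At the limits of the rule, 36 introns had exactly 150 reads and were kept, among them one of 60 bp in CG7456, and 34 had 149 and were left out, among them one of 92 bp in *Myo31DF*. There were 36 introns of 100 bp, the most read in CG3621 with 3281 reads, and 37 that were 1 bp longer, the most read in *RpS3A* with 12533. Below 40 bp, the longest were 37-bp gaps in CG14629 with 626 reads and in *Cdc42* with 167, neither of which is annotated. Another 172 short junctions with enough reads name several genes and were left out, as were 42894 with fewer than 150 reads.

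Read depth was even. Between 11753627 and 11979892 reads were counted on genes and between 3129163 and 3244363 across junctions in each library, and short introns held between 46.29% and 47.72% of the junction reads. Photoreceptor genes were abundant in every library, with 1265796 to 1424788 summed reads over 5 markers in GMR>prp4-RNAi, 1198929 to 1407506 in GMR>prp8-RNAi and 1327191 to 1403684 in GMR/+ heads, whereas 4 ovary genes summed to at most 5 reads. Most of the photoreceptor reads were those of *ninaE*, which overlapped between each knockdown and GMR/+, as did *chp*, *ninaC* and *Arr2*. The fifth marker, *trp*, had 21383 to 26579 reads in GMR>prp8-RNAi and 26766 to 29461 in GMR/+ heads, with no overlap. In GMR>prp4-RNAi heads *trp* had 23305 to 27329, which overlapped GMR/+. Summed over 4 glial markers there were 39802 to 43383 reads in GMR>prp4-RNAi, 40316 to 46053 in GMR>prp8-RNAi and 44661 to 50584 in GMR/+ heads, with no overlap between GMR>prp4-RNAi and GMR/+. Among these markers only *Gs2* did not overlap, with 31231 to 34097 and 34881 to 41242 reads, whereas *repo*, *Eaat1* and *nrv2* did. The part of this in the results was not tested. The fat body gene *Lsp2* varied several-fold, from 25577 to 202339 reads in GMR>prp4-RNAi, from 14912 to 92559 in GMR>prp8-RNAi and from 32605 to 75431 in GMR/+ heads. CG7028, the gene of the Prp4 kinase, had 111 to 149 reads in GMR>prp4-RNAi and 141 to 165 in GMR/+ heads (log2 fold change −0.23, edgeR adjusted p = 0.101). *Prp8* had 1264 to 1311 reads in 4 of the GMR>prp8-RNAi libraries and 1572 in the library labelled GMR>prp8-RNAi replicate 14, against 1339 to 1545 in GMR/+ heads (log2 fold change −0.11, edgeR adjusted p = 0.278). Neither targeted gene was past the threshold of 0.05 in whole heads.

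The library labelled GMR>prp8-RNAi replicate 14 stood apart from the others of its group. A 75-bp intron of CG10264 (3R, 16044204 to 16044278) had 34, 28, 30, 46 and 54 reads in GMR>prp4-RNAi, 33 reads in replicate 14, 0 in each of the other 4 GMR>prp8-RNAi libraries and 0 in all 5 GMR/+ libraries. No other library of its group had a read there. Of the 22 short introns that differed between GMR>prp4-RNAi and GMR/+ heads, a comparison that does not use replicate 14, this library lay within the range of the GMR>prp4-RNAi libraries in 13, within that of the other 4 GMR>prp8-RNAi libraries in 8 and within that of GMR/+ in 2. The labels were kept as given, and for the introns called in a comparison with GMR>prp8-RNAi the log2 fold change is also given without this library.

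Summed over all short introns, the knockdowns had nearly the same number of junction reads as controls. Here the sum was divided by the reads of all genes in the library, including genes without a short intron. It therefore also depends on which genes are expressed. Per 1000 of these gene reads there were 126.7, 126.2, 125.3, 124.2 and 124.6 in GMR>prp4-RNAi, 127.2, 126.5, 127.6, 125.7 and 127.0 in GMR>prp8-RNAi, and 125.4, 127.8, 126.6, 126.6 and 127.5 in GMR/+ heads. The 3 groups overlapped, with means of 125.4 ± 1.04, 126.8 ± 0.734 and 126.8 ± 0.941 (SD, n = 5 each). Intermediate introns had 98.61 ± 1.1, 97.33 ± 1.15 and 99.04 ± 0.775, and long introns 22.95 ± 0.910, 23.27 ± 0.507 and 23.64 ± 1.38, and these also overlapped between the groups.

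**Figure D2:**
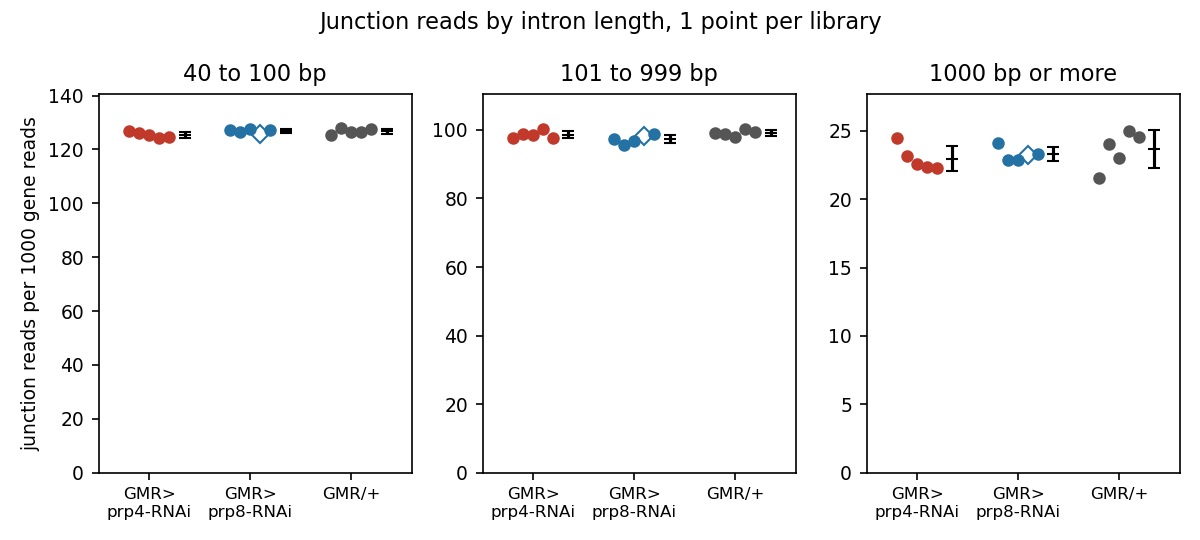
Junction reads summed over short, intermediate and long introns, per 1000 reads of all genes in the library (y axis, starting at 0). Points are the 5 libraries of each genotype, and bars give their mean and SD. The open diamond is the library labelled GMR>prp8-RNAi replicate 14. Short introns sit between 124.2 and 127.8 in all 15 libraries, and the genotypes overlap in each panel.

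Reads per short intron ranged over several orders of magnitude. The median intron had 505 reads over the 15 libraries and the most read, the 63-bp first intron of *ninaE* (3R, 19887960 to 19888022), had 1052603. The other introns with the most reads were the 58-bp and 68-bp introns of *ninaE*, a 73-bp intron of the ribosomal protein gene *RpL23A*, the 62-bp second intron of *Arr2*, the arrestin that ends rhodopsin signaling, and a 92-bp intron of *Ald*, the glycolytic aldolase. The spread between libraries fell with depth. It is set beside the counting error of the junction reads, which leaves out that of the gene reads. The coefficient of variation over the 5 GMR/+ libraries had a median of 25.9% for introns with at least 150 and under 300 reads, where counting error alone gives 26.5%, of 17.2% (17.3%) from 300 to under 1000 reads, of 9.74% (9.0%) from 1000 to under 10000 reads, and of 5.57% (2.97%) above that.

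To compare levels between genes, the ratio was scaled by the exonic length of the gene, giving junction reads per gene read times exonic length in kb. In GMR/+ heads the constitutive short introns had a median level of 0.19 with quartiles of 0.117 and 0.297, against medians of 0.185 for constitutive intermediate and 0.175 for constitutive long introns. Without the restriction to constitutive introns the medians were 0.186, 0.163 and 0.146. Introns that another transcript holds inside an exon had a median of 0.153, against 0.187 for the others. Across lengths the median was between 0.176 and 0.192 from 51 to 100 bp, and 0.152 for the 65 annotated introns of 40 to 50 bp. These are descriptions over introns, which share genes and libraries.

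Among genes with at least 100 reads in every library, the highest median ratios in GMR/+ heads were found in *Prx2540-1*, a peroxiredoxin gene, with means of 1315 ± 48.6 and 1204 ± 57.7 junction reads per 1000 gene reads in GMR/+ heads at its 2 introns of 63 bp, followed by *Rpb12* with 1001 ± 91.4 and CG7630 with 980.4 ± 21.6 (SD, n = 5). A value above 1000 means that more reads crossed the junction than were counted on the gene, which held for 17 short introns in 14 genes. Such a ratio cannot be read as the share of molecules with the intron removed. Genes with fewer reads reached higher values, such as 9986 ± 1280 at the 66-bp intron of the tetraspanin gene *Tsp42Ea*, which had 18 to 24 gene reads in GMR/+ libraries. Low ratios, with means between 0.0111 and 0.0724 in GMR/+ heads, were found at unannotated gaps of 53 bp in *ninaE*, 98 and 87 bp in *Arr2* and 63 bp in *Ef1alpha48D*, all within the transcripts of very abundant genes.

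Short introns of the same gene differed widely in their junction reads. The comparison took 950 genes with at least 4 constitutive short introns and at least 100 gene reads in every library, which hold 5354 of the introns. The mean ratio of the highest intron in GMR/+ heads was 4.17 times that of the lowest in the median gene, 1.71 times at the 5th percentile and 13.5 times at the 95th, and exceeded 10 times in 98 genes. The same intron was highest in all 15 libraries in 449 genes (47.3%), and the same was lowest in 254 (26.7%), so that in most genes the highest or the lowest intron was not the same in every library. The differences were among the largest in CG43340, 51.4 times, and *sif*, a guanine nucleotide exchange factor, 38.3 times. The highest and the lowest were picked from the values compared, so counting error and the number of introns in a gene add to these ratios. An intron can also be constitutive here without being in every transcript of the gene.

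*timeless* (*tim*), the clock gene whose splicing the study addressed, shows this spread. The intron that the study followed is longer than 100 bp and is not among the short introns, so the values here are not of that intron. The study set its reads against those of a constitutive neighbor, which was not singled out here. Its 8 short introns, all constitutive, range from 56 to 88 bp. The 57-bp intron (2L, 3503194 to 3503250) had 120.4 ± 4.96, 123.6 ± 4.94 and 121.3 ± 5.31 reads per 1000 *tim* reads in GMR>prp4-RNAi, GMR>prp8-RNAi and GMR/+ heads, and the 61-bp intron upstream of it (2L, 3504300 to 3504360) had 5.457 ± 0.588, 5.360 ± 0.353 and 5.458 ± 0.382 (SD, n = 5 each). The ratio between these introns in GMR/+ heads was 22.2, and they were highest and lowest in all 15 libraries. None of the 8 passed the test in either comparison with GMR/+, where log2 fold changes lay between −0.067 and 0.11 for GMR>prp4-RNAi and between −0.026 and 0.10 for GMR>prp8-RNAi, with adjusted p of at least 0.868 and 0.904 (edgeR). *tim* itself had a log2 fold change of 0.23 in GMR>prp4-RNAi (edgeR adjusted p = 0.0145). The 5 short introns of *period* (*per*), the partner of *tim*, ranged from 15.2 to 73.7 reads per 1000 gene reads in GMR/+ heads, and none passed the test.

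**Figure D3:**
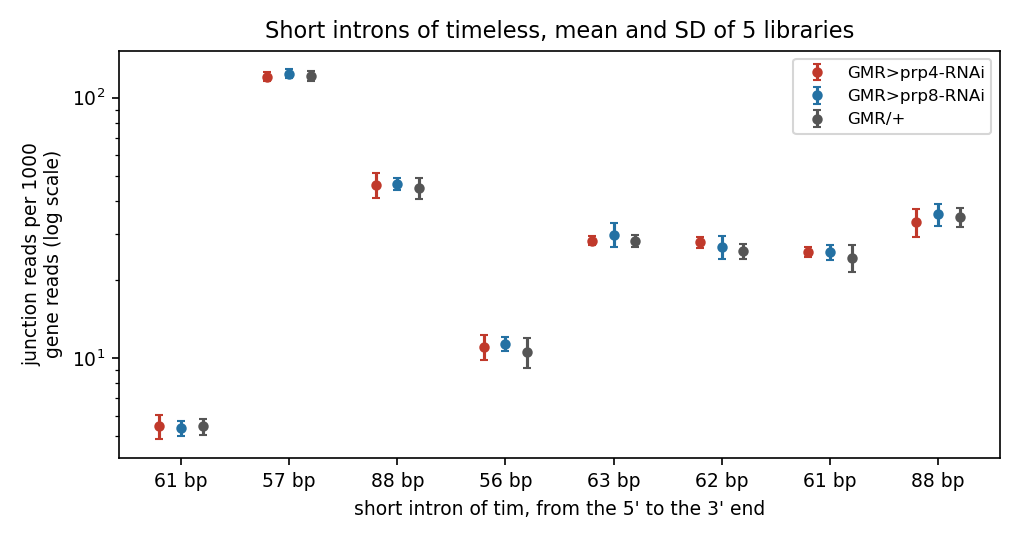
Junction reads per 1000 gene reads on a log axis (y) for the 8 short introns of *tim* in the order of transcription (x axis, labelled by length), as mean and SD of 5 libraries for each genotype. The 57-bp intron lies above 100 and the 61-bp intron before it near 5 in every genotype, and the genotypes overlap at each intron.

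The question of the design is whether loss of a tri-snRNP component changes the use of single introns. Each short intron was therefore tested for a change in junction reads per gene read between genotypes with edgeR's quasi-likelihood test, 5 libraries per genotype, with Benjamini-Hochberg adjustment over all 23213 junctions that could be tested. The fold changes below are of this ratio, and an intron was called when its adjusted p was under 0.05. Of the 12651 short introns, 12628 were tested. The other 23 could not be, because the gene symbol was not matched in the gene table for 13 and the gene had 0 reads in a library for 10. Among these are both introns of the immune-induced peptide gene *IM10* and 3 of the guanylyl cyclase gene *Gyc76C*. All 12628 passed the minimum by their total over the 15 libraries, so an intron read mainly in a single genotype could pass.

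Between GMR>prp4-RNAi and GMR/+ heads 22 of 12628 short introns differed, or 0.174%, of which 10 were higher and 12 lower in the knockdown. Over all junctions tested, 75 of 23213 differed (0.323%), 0.155% higher and 0.168% lower. The share was 0.488% for intermediate introns (32 of 6561) and 0.523% for long introns (21 of 4014), and the difference between these shares was not tested. The classes differ in more than length: among annotated introns, 11723 of 12562 short, 4313 of 6382 intermediate and 2267 of 3864 long ones were constitutive. An unadjusted p under 0.05 was found for 682 short introns (5.40%), against 6.51% of all junctions. The 5 knockdown and 5 control libraries did not overlap for 153 short introns (1.21%), against 1.47% of all junctions. The median log2 fold change of the short introns was −0.0011, and the 5th and 95th percentiles were −0.33 and 0.32.

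The largest fall was in *Zasp52*, which encodes a PDZ and LIM domain protein of the muscle Z-disc. Its constitutive coding intron of 79 bp (2R, 15763271 to 15763349) had 8.59, 4.60, 9.07, 12.4 and 8.28 reads per 1000 gene reads in GMR>prp4-RNAi, 20.2, 25.9, 23.8, 9.42 and 24.4 in GMR>prp8-RNAi, and 32.9, 21.3, 27.4, 25.6 and 26.8 in GMR/+ heads. Every GMR>prp4-RNAi library was below every control, and replicate 14 was the only GMR>prp8-RNAi library in their range. The log2 fold change for GMR>prp4-RNAi over GMR/+ was −1.65 (SE 0.160, edgeR adjusted p = 3.18e-07). *Zasp52* gene reads did not pass the test (log2 fold change −0.057, adjusted p = 0.572), and its 3 other short introns had log2 fold changes between −0.071 and 0.20, none past the threshold.

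Single introns of *bw* and *dp* were also lower in GMR>prp4-RNAi by the same test. In *bw*, an ABC transporter of eye pigment precursors, the 67-bp intron (2R, 23529272 to 23529338) had 30.7, 29.5, 24.1, 29.0 and 29.7 reads per 1000 gene reads in GMR>prp4-RNAi, 53.9, 58.1, 45.9, 22.3 and 45.5 in GMR>prp8-RNAi, and 51.6, 44.6, 53.9, 45.3 and 43.8 in GMR/+ heads. The GMR>prp4-RNAi libraries and replicate 14 were all below the controls (GMR>prp4-RNAi over GMR/+ −0.75, SE 0.102, edgeR adjusted p = 0.000113), and the 6 other short introns of *bw* did not pass. In *dp*, the 77-bp intron (2L, 4520300 to 4520376), which some transcripts do not splice, had 6.87, 5.64, 6.68, 8.26 and 6.02 in GMR>prp4-RNAi, 12.0, 10.2, 11, 8.20 and 9.42 in GMR>prp8-RNAi, and 12.4, 10.6, 12.0, 11 and 11.4 in GMR/+ heads. Its log2 fold change was −0.77 (SE 0.102, adjusted p = 5.79e-05). Gene reads of *dp* were higher in the knockdown (log2 fold change 0.54, adjusted p = 0.000126), with 14780 to 18864 in GMR>prp4-RNAi and 11274 to 13346 in GMR/+ heads, whereas this junction had 89 to 139 and 130 to 152 reads. It was the 1 intron of the 45 in *dp* that passed.

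*Ilp2* and *RpS4* were called in both knockdowns, and both comparisons use the same 5 control libraries. *Ilp2* encodes an insulin-like peptide made by neurosecretory cells of the brain and has a single short intron of 73 bp (3L, 9799927 to 9799999). It had 158.9, 172.9, 157.1, 169.3 and 150.1 reads per 1000 gene reads in GMR>prp4-RNAi, 144.6, 165.5, 159.9, 178.5 and 160.2 in GMR>prp8-RNAi, and 230.1, 223.7, 246.6, 227.2 and 261.6 in GMR/+ heads. All 10 knockdown libraries, replicate 14 included, were below all 5 controls. The log2 fold change was −0.56 in each (SE 0.0727, edgeR adjusted p = 5.38e-05 for GMR>prp4-RNAi, and SE 0.0722, adjusted p = 6.71e-06 for GMR>prp8-RNAi). Without replicate 14 the value for GMR>prp8-RNAi was −0.59.

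*RpS4*, a protein of the small ribosomal subunit, has short introns of 95 bp (3L, 13042015 to 13042109) and 73 bp. The 95-bp intron had 15.5, 10.9, 9.34, 8.85 and 10.3 reads per 1000 gene reads in GMR>prp4-RNAi, 12.4, 11, 9.52, 9.79 and 11.1 in GMR>prp8-RNAi, and 5.05, 7.16, 6.99, 6.78 and 5.40 in GMR/+ heads, again with no overlap. The log2 fold changes were 0.81 (SE 0.120, edgeR adjusted p = 0.000344) and 0.78 (SE 0.0903, adjusted p = 6.32e-07), and without replicate 14 the value for GMR>prp8-RNAi was 0.81. The 73-bp intron, which carried far more reads, had means of 130.5, 132.6 and 151.6 per 1000 gene reads in GMR>prp4-RNAi, GMR>prp8-RNAi and GMR/+ heads, with log2 fold changes of −0.22 and −0.19 that did not pass (adjusted p = 0.0580 and 0.0633).

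**Figure D4:**
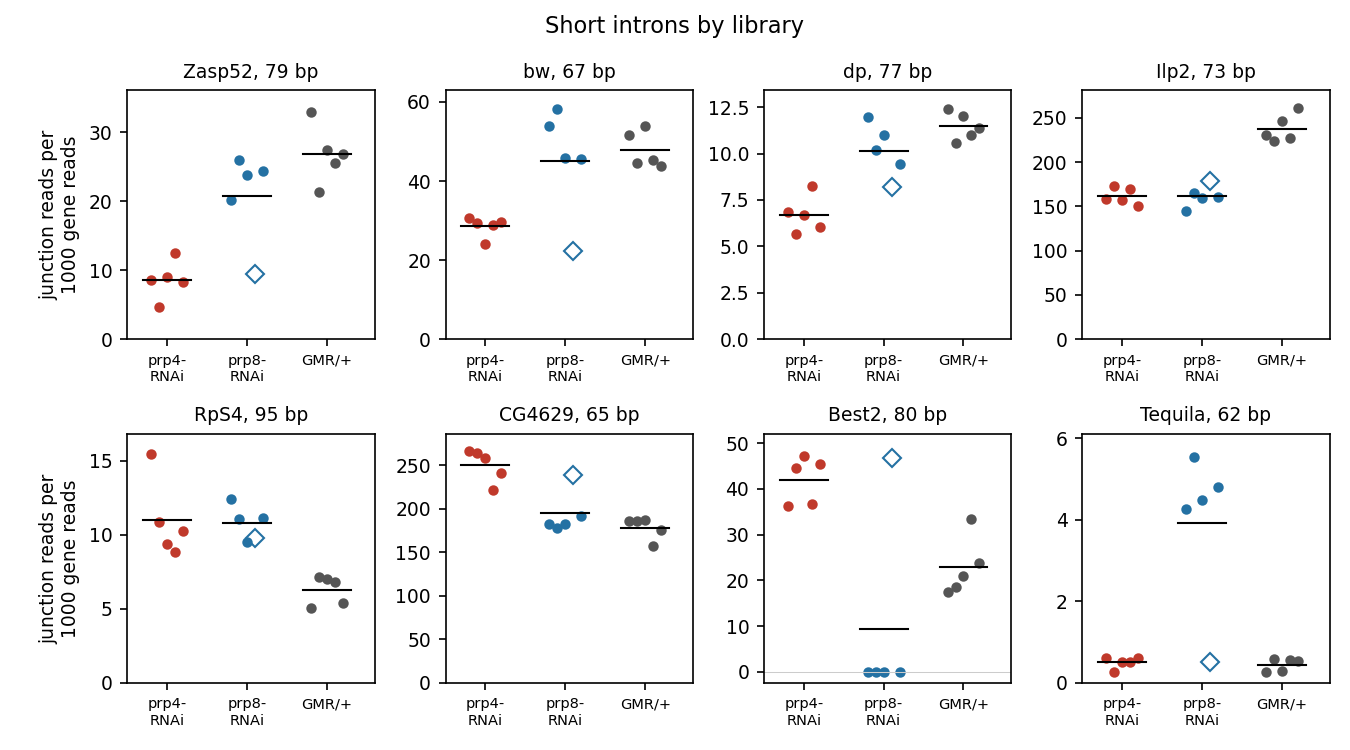
Junction reads per 1000 gene reads (y axis) in each library (points; open diamond, the library labelled GMR>prp8-RNAi replicate 14) for 8 short introns, with the group mean as a line. Zasp52, bw and dp are low in GMR>prp4-RNAi and in replicate 14, Ilp2 and RpS4 differ from GMR/+ in both knockdowns, and Tequila is high in 4 GMR>prp8-RNAi libraries only.

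Other introns were also called in GMR>prp4-RNAi heads. *IA-2*, a phosphatase-like protein of dense core vesicles, had 2 of its 7 short introns lower: the 65-bp intron (2L, 1014485 to 1014549) with 13.95 ± 2.75 reads per 1000 gene reads in GMR>prp4-RNAi and 20.56 ± 1.85 in GMR/+ heads (log2 fold change −0.57, edgeR adjusted p = 0.00427), and its upstream neighbor of 60 bp with 44.74 ± 2.31 and 54.11 ± 2.61 (−0.28, adjusted p = 0.0340, SD, n = 5 each). *Rab3-GEF*, which activates the vesicle protein Rab3, was higher at 1 of its 10 short introns (77 bp, X, 15097551 to 15097627) with 91.51 ± 12.5 and 61.96 ± 3.55 (0.56, adjusted p = 0.00112). *metro*, a scaffold protein of the neuromuscular junction, was higher at a 63-bp intron with 21 to 37 reads in GMR>prp4-RNAi and 8 to 22 in GMR/+ libraries (log2 fold change 1.33, SE 0.228, adjusted p = 0.00229). Its gene reads were lower in the knockdown, with 569 to 629 and 832 to 938 (log2 fold change −0.57). The Robo ligand gene *sli* was higher at a 69-bp intron (0.47, adjusted p = 0.0229), and the large ubiquitin ligase gene *poe* was lower at a 61-bp intron (−0.69, adjusted p = 0.0222). The calls for *IA-2* 60 bp, *sli* and *poe* were lost without replicate 8, 7 and 8, with adjusted p of 0.153, 0.116 and 0.0897.

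The remaining calls in GMR>prp4-RNAi are as follows. *Cyp313a1*, a cytochrome P450, was higher at 3 of its 6 short introns, of 64, 73 and 50 bp, with log2 fold changes of 0.46, 0.42 and 0.41 (edgeR adjusted p = 0.00401, 0.0231 and 0.00898). CG4629 was higher at a 65-bp intron (2L, 1085862 to 1085926), which had 266.7, 264.0, 258.5, 222.0 and 241.4 reads per 1000 gene reads in GMR>prp4-RNAi and 186.1, 186.1, 187.0, 157.2 and 175.1 in GMR/+ heads (0.49, SE 0.0744, adjusted p = 0.000444). In GMR>prp8-RNAi it had 238.7 in replicate 14 and 178.2 to 191.3 in the others. *MRP*, an ABC transporter gene, was higher (0.52, adjusted p = 0.0283), whereas the malic enzyme gene *Men-b* (−0.37, adjusted p = 0.0289) and *Dnz1* (−0.62, adjusted p = 0.00725), a palmitoyltransferase gene, were lower. CG12071 was lower at 78 bp (−0.83, adjusted p = 0.0222), and its gene reads were higher in the knockdown (log2 fold change 0.60) with 30 to 40 and 30 to 53 junction reads. An unannotated 76-bp junction in CG4168 had 10 to 29 reads in GMR>prp4-RNAi and 26 to 39 in GMR/+ libraries (−1.05, adjusted p = 0.0117). The calls were lost for *Cyp313a1* 73 bp and *MRP* without replicate 3 (adjusted p = 0.109 and 0.135), for *Men-b* and CG4168 without replicate 8 (0.130 and 0.0598) and for CG12071 without replicate 4 (0.135).

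The calls in *Best2* and *Cyp12d1-p* rest on unusual counts. In *Best2*, a bestrophin chloride channel gene, an unannotated 80-bp junction (3L, 6251496 to 6251575) lies 4 bases from an annotated intron of the same length (3L, 6251500 to 6251579). It had 33, 42, 38, 34 and 41 reads in GMR>prp4-RNAi, 0, 0, 0, 40 and 0 in GMR>prp8-RNAi, and 17, 18, 19, 32 and 22 in GMR/+ libraries. A count of 0 allows up to 3 reads, and replicate 14 was alone in its group in having any. For GMR>prp4-RNAi over GMR/+ the log2 fold change was 0.87 (SE 0.185, edgeR adjusted p = 0.0222, and 0.0897 without replicate 8), and the annotated neighbor had a value of −0.37 that did not pass (adjusted p = 0.336). In *Cyp12d1-p*, whose near-identical copy *Cyp12d1-d* can share reads, a 54-bp intron had 108 to 193 junction reads in GMR>prp4-RNAi and 47 to 68 in GMR/+ libraries, and the gene had 72 to 119 and 18 to 28 reads, fewer than the junction. The ratio was therefore called lower (−0.71, adjusted p = 0.00746, and 0.0668 without replicate 4) while junction reads per library were higher.

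The calls depended on what the junction was divided by. When each junction was tested against the other junctions of its gene instead (diffSpliceDGE of edgeR), 6 of the 22 introns were past the threshold, namely those of *Zasp52*, *dp*, *bw*, *RpS4*, *Best2* and CG12071, and *Ilp2* could not be tested because it has no second junction. With each library left out in turn, 12 of the 22 kept an adjusted p under 0.05 throughout.

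Between GMR>prp8-RNAi and GMR/+ heads 15 of 12628 short introns differed, or 0.119%, 8 higher and 7 lower, against 67 of 23213 junctions (0.289%, with 0.168% higher and 0.121% lower). Intermediate introns had 0.472% (31 of 6561) and long introns 0.523% (21 of 4014), and these shares were again not tested against each other. An unadjusted p under 0.05 was found for 793 short introns (6.28%), against 6.93% of all junctions, and the groups did not overlap for 150 (1.19%), against 1.36%. The median log2 fold change was 0.0058. Without replicate 14, 21 short introns passed.

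*Tequila*, which encodes a serine protease, had the largest differences. Its 62-bp intron (3L, 9076796 to 9076857), which is alternative, had 4.27, 5.55, 4.48, 0.512 and 4.81 reads per 1000 gene reads in GMR>prp8-RNAi and 0.264, 0.584, 0.287, 0.558 and 0.534 in GMR/+ heads, and GMR>prp4-RNAi heads had 0.274 to 0.611. The 53-bp intron upstream (3L, 9076266 to 9076318) had 3.44, 3.21, 3.10, 0.293 and 3.16 in GMR>prp8-RNAi and 0.139 to 0.438 in GMR/+ heads. At both introns 4 GMR>prp8-RNAi libraries were high, and replicate 14 lay within the control range. The GMR/+ ratios rest on few junction reads in each library. The log2 fold changes were 3.01 (SE 0.378, edgeR adjusted p = 3.28e-06) and 3.13 (SE 0.423, adjusted p = 1.35e-05), and without replicate 14 they were 3.4 and 3.52. *Tequila* gene reads were lower in the same 4 libraries, with 7906 to 8699 against 13677 in replicate 14 and 13103 to 15128 in GMR/+ heads. The 10 other short introns of the gene did not pass.

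Other short introns in GMR>prp8-RNAi heads were changed less, all by the same edgeR test. An unannotated 90-bp junction in CG30118 had 3, 2, 1, 11 and 8 reads in GMR>prp8-RNAi and 8 to 28 in GMR/+ libraries (log2 fold change −1.74, adjusted p = 0.0243, and −2.24 without replicate 14). CG7888 was lower at a 62-bp intron with 33.66, 36.40, 42.14, 61.15 and 35.63 reads per 1000 gene reads in GMR>prp8-RNAi and 60.05 to 78.08 in GMR/+ heads (−0.63, adjusted p = 0.0110), where replicate 14 was again the one in the control range. *Hml*, a hemocyte clotting protein, was lower at 1 of its 15 short introns (53 bp, −0.58, adjusted p = 0.0458), and CG2202 at 63 bp (−0.73, adjusted p = 0.0417). The adaptor gene *14-3-3epsilon* was higher at 81 bp (0.39, adjusted p = 0.0238), CG32581 at 63 bp (0.37, adjusted p = 0.0165) and CG17352 at 66 bp (0.75, adjusted p = 0.0296). Without replicate 14 the log2 fold changes were −0.81 for CG7888, −0.66 for *Hml*, −0.60 for CG2202, 0.46 for *14-3-3epsilon*, 0.41 for CG32581 and 0.71 for CG17352. Without it, CG2202 and CG17352 were no longer past the threshold (adjusted p = 0.175 and 0.0907), nor was CG2202 without replicate 12 (0.184) or CG17352 without replicate 13 (0.137). Leaving out another library ended the calls of CG30118 (replicate 5, 0.197), CG7888 (replicate 15, 0.0685) and, without replicate 13, of *Hml* (0.183), *14-3-3epsilon* (0.112) and CG32581 (0.137).

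In 4 of the 15 introns the gene reads differed between the groups, for CG32165 in all libraries but replicate 14, while the junction reads overlapped. *Tsp42Ea* had 6, 9, 8, 14 and 13 gene reads in GMR>prp8-RNAi and 18 to 24 in GMR/+ libraries, whereas its 63-bp intron had 94 to 166 and 119 to 138 junction reads and its 66-bp intron 141 to 197 and 186 to 240. The ratios were called higher (1.07 and 0.82, edgeR adjusted p = 3.34e-05 and 5.47e-05, and 1.27 and 0.95 without replicate 14). CG32165 had 154, 147, 146, 33 and 173 gene reads in GMR>prp8-RNAi and 32 to 55 in GMR/+ libraries, whereas its 79-bp intron had 94 to 121 and 102 to 140 junction reads. Its introns of 59 and 79 bp were called lower (−1.70 and −1.60, adjusted p = 0.000248 and 1.66e-06, and −2.08 and −1.90 without replicate 14). The test takes the gene count as known, so its counting error, large at counts this low, is not in these p-values. Introns of a gene also share its count, so their calls are not separate results. Against the other junctions of the gene, none of these 4 passed. That test held for 6 of the 15, namely both *Tequila* introns and those of *RpS4*, CG30118, CG7888 and CG17352.

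**Figure D5:**
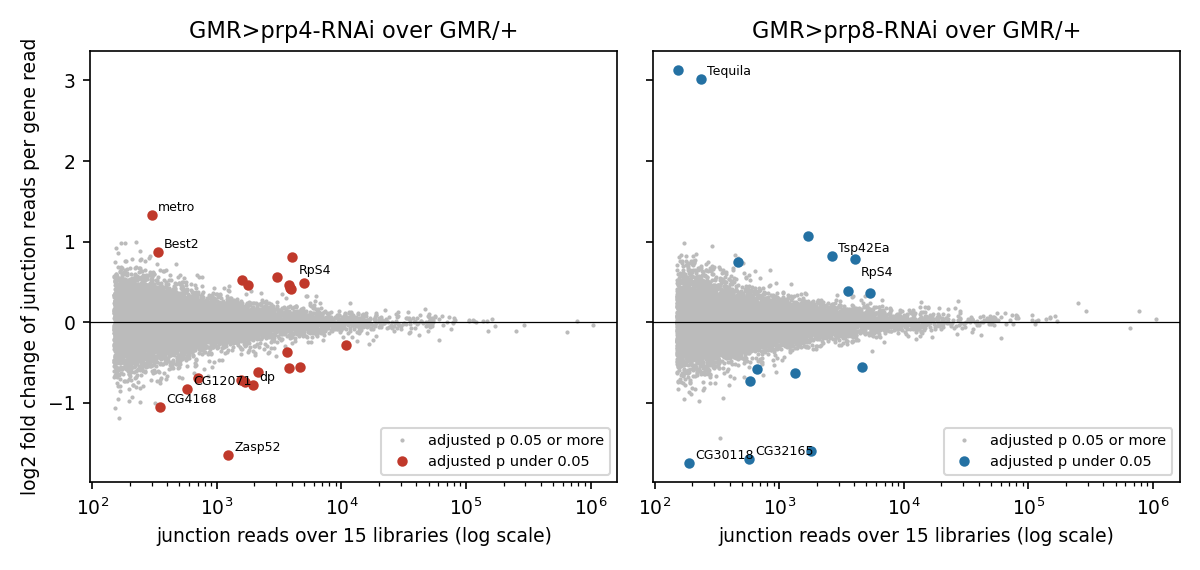
Log2 fold change of junction reads per gene read (y axis) against the junction reads over all 15 libraries (x axis, log scale) for the 12628 short introns tested, GMR>prp4-RNAi over GMR/+ (left) and GMR>prp8-RNAi over GMR/+ (right). Colored points have an adjusted p under 0.05, 22 on the left and 15 on the right, and genes are named once each where a fold change is beyond 0.75 in either direction; the spread of the other introns widens at low counts.

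The knockdowns were also set against each other. Between GMR>prp4-RNAi and GMR>prp8-RNAi heads 16 of 12628 short introns differed, or 0.127%, 7 higher and 9 lower in GMR>prp4-RNAi, against 38 of 23213 junctions (0.164%, with 0.0689% higher and 0.0948% lower). An unadjusted p under 0.05 was found for 643 (5.09%, against 5.95%), and 117 did not overlap (0.927%, against 0.982%). Most were introns already named. *Zasp52* (−1.28, edgeR adjusted p = 0.000426), *dp* (−0.58, 0.00525) and both introns of *Tequila* (−2.91 and −2.84, 0.000177 and 2.20e-05) were lower in GMR>prp4-RNAi, and CG4629 (0.36, 0.0330), *metro* (0.96, 0.0362), *Cyp313a1* 64 bp (0.42, 0.0213) and *Best2* (2.32, 0.0292) were higher. The CG30118 and CG32165 introns were higher and those of *Tsp42Ea* lower. Without replicate 14 the values were −1.47 for *Zasp52*, −0.67 for *dp*, −3.31 and −3.22 for *Tequila*, 0.45 for CG4629, 0.996 for *metro* and 0.48 for *Cyp313a1*, and they were 2.28 for CG30118, 1.96 and 1.74 for CG32165 and −1.40 and −1.08 for *Tsp42Ea*. For *Best2*, the other 4 GMR>prp8-RNAi libraries had 0 reads, and no fold is given. Replicate 14 decided much of this count: without it, 35 short introns passed.

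The other introns called here included the second intron of *Arr2*, 62 bp on 3L from 8647646 to 8647707. It had 53.3, 53.5, 53.0, 52.1 and 52.5 reads per 1000 gene reads in GMR>prp4-RNAi, 72.8, 73.2, 71.1, 50.9 and 67.9 in GMR>prp8-RNAi, and 59.0, 57.1, 60.6, 52.6 and 55.4 in GMR/+ heads. All GMR>prp8-RNAi libraries but replicate 14 were above those of the other genotypes, and replicate 14 had the lowest value of the 15. The log2 fold change for GMR>prp4-RNAi over GMR>prp8-RNAi was −0.34 (SE 0.0602, edgeR adjusted p = 0.00305), and −0.43 without replicate 14. Against GMR/+ the GMR>prp8-RNAi value was 0.24 (adjusted p = 0.0787) with replicate 14 and 0.32 (adjusted p = 1.72e-05) without it. CG16926 (69 bp, −0.45, adjusted p = 0.0313) and the trafficking gene *mon2* (87 bp, −0.71, adjusted p = 0.0362) were lower in GMR>prp4-RNAi, with −0.53 and −0.80 without replicate 14. Without replicate 13, the calls of CG16926, *mon2*, CG4629, CG30118 and *Best2* were lost (adjusted p = 0.183, 0.256, 0.206, 0.183 and 0.183), as were *metro* without replicate 7 (0.213), *Cyp313a1* without replicate 15 (0.128) and *dp* without replicate 11 (0.0624).

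Over the 3 comparisons 38 short introns in 32 genes were called. Of these, 35 are annotated, 34 are coding in every transcript that has them and 27 are constitutive. Their lengths ran from 50 to 95 bp with a median of 66 bp, and their totals from 154 to 250131 reads with a median of 1741. Introns confined to 5′ UTRs, 3′ UTRs or noncoding transcripts, of which 94, 63 and 13 were tested, had no call against GMR/+, where the shares over all short introns would give less than 1. Among introns under 300 reads there were 0 calls against GMR/+ in GMR>prp4-RNAi and 3 in GMR>prp8-RNAi of 3583. From 300 to under 1000 reads there were 5 and 4 of 5557, from 1000 to under 10000 reads 16 and 8 of 3212, and above that 1 and 0 of 276. Over all short introns the shares were 0.174% and 0.119%, and the difference between depths was not tested.

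Genes were also grouped by function. The shares called over all short introns, 0.174% in GMR>prp4-RNAi and 0.119% in GMR>prp8-RNAi, would give less than 1 call in a list of any of these sizes, and both comparisons share the 5 GMR/+ libraries. The 19 short introns of tri-snRNP genes, 10 of them in *Prp8* and 1 in CG7028, had none in either knockdown, with median log2 fold changes of −0.038 for GMR>prp4-RNAi and −0.0061 for GMR>prp8-RNAi, beside −0.0011 and 0.0058 for all short introns. The 32 introns of other splicing factor genes, such as *U2af50* and *Rbp9*, also had none, with medians of −0.087 and −0.091, and 24 and 23 of them had values below 0, beside 6344 and 6158 of all 12628. None of the 39 introns of clock genes was called (medians 0.00012 and 0.0079). Of 111 introns of phototransduction genes, none was called against GMR/+ (medians 0.0092 and 0.0093), with 14 and 8 at an unadjusted p under 0.05, beside 682 and 793 of all 12628 (5.40% and 6.28%).

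Of 52 introns of eye pigment genes, that of *bw* was called lower in GMR>prp4-RNAi and none in GMR>prp8-RNAi (medians 0.031 and 0.017). In this list *w*, which encodes a transporter subunit that pairs with the *bw* product, had 5524 to 6464 gene reads in GMR>prp4-RNAi, 4081 to 6629 in GMR>prp8-RNAi and 454 to 509 in GMR/+ heads. Of its 3 short introns, the 70-bp intron had 209.7 ± 24.5, 213.7 ± 13.1 and 226.7 ± 29.9 reads per 1000 gene reads (SD, n = 5 each), and none of the 3 passed the test. GMR/+ flies lack the RNAi transgene, so its part in the *w* gene reads cannot be told apart from that of the knockdown. Of 55 introns of cytoplasmic ribosomal protein genes, *RpS4* was called higher in both knockdowns (medians 0.026 and 0.021). The most read of these, in *RpL23A* and *RpS27*, had 369.4 ± 48.0 and 960.5 ± 12.2 in GMR>prp4-RNAi, 414.0 ± 6.89 and 988.9 ± 22.6 in GMR>prp8-RNAi, and 376.9 ± 55.9 and 947.0 ± 13.9 in GMR/+ heads, and did not pass.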

How the data were processed

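RNA from fly heads was sequenced in 15 libraries, 5 per genotype. Per the study's methods, the authors aligned reads with STAR (2.5.3a) to BDGP6 with Ensembl release 88, removed ribosomal and mitochondrial reads with the PORT pipeline, resampled aligned reads to equal depth and deposited counts per gene and per junction. Both tables hold whole-number read counts. Resampling removes differences in total RNA. No columns of the authors' own comparisons were used.

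Junctions with at least 150 reads and a single gene were tested with the quasi-likelihood test of edgeR (4.0.16, R 4.3.3) on the deposited junction counts, with the log of the gene count as offset, so that a fold change is of junction reads per gene read. Each comparison with GMR/+ was fitted on its 10 libraries, and the comparison of the knockdowns on all 15. Junctions of genes with 0 reads in a library were not tested. P-values were adjusted over 23213 junctions, and the SE is the absolute log2 fold change divided by the square root of F. The study calls the 5 libraries of GMR>prp4-RNAi and GMR/+ independent biological replicates. For GMR>prp8-RNAi the labels do not say that the libraries came from separate flies, so p-values there may measure technical spread. A count of 0 allows up to 3 counts, for counting error only. The fit was tested before use on simulated junction counts, with the gene counts kept as observed.

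Junctions were matched to introns of Ensembl release 115 on BDGP6. No genome sequence was used here, so the bases at intron ends were not examined. The rule for named introns took, in each comparison, the 6 highest and 6 lowest fold changes among introns past the threshold with no overlap and a mean of at least 20 reads in a group. It added the 6 most read introns, the called and the 2 most read introns of each gene list, the 4 highest and 4 lowest ratios, the 4 shortest introns and those at the limits of the rule. The other introns past the threshold, and the genes shown whole, were named after their values were seen. Members and gene lists were chosen with earlier results of these data known. Alternatives were diffSpliceDGE, library size factors without the gene count, DESeq2 (1.42.0), limma (3.58.1), other read minimums, annotated introns only, a fold change minimum and leaving out each library. Leaving out introns with more junction than gene reads was added after seeing the data. Tables and figures were made with Python 3.11.15, numpy 2.4.6, pandas 2.3.3 and matplotlib 3.10.9.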

Additional observations from a re-analysis of the deposited data

Results flagged for a closer look

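The libraries of each genotype were compared at each of the 38 called introns and for the sum over short introns, over 117 groups of 5 libraries. In 13 groups the highest or the lowest library was farther from its nearest neighbor than 0.71 of the range of the group, where chance gives about 1 in 20 groups. In 9 of the 13 it was the library labelled GMR>prp8-RNAi replicate 14. The rate given for chance is for independent groups. These groups reuse the same 15 libraries, some introns share a gene, and the introns were called from the same values.

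The gap of replicate 14 as a share of the range, and its junction reads per 1000 gene reads, were 0.784 and 238.7 for CG4629, 0.801 and 79.72 for CG16926, and 0.761 and 50.85 for *Arr2*. For CG32165 they were 0.971 and 1182 at the 59-bp intron and 0.923 and 2848 at the 79-bp intron, and for *Best2* 1 and 46.78. For *Tequila* they were 0.893 and 0.293 at 53 bp and 0.747 and 0.512 at 62 bp, and for *14-3-3epsilon* 0.886 and 42.69. The other 4 GMR>prp8-RNAi libraries lay together in each of these.

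The remaining gaps were in other libraries. In GMR>prp4-RNAi they were replicate 9 for the 60-bp intron of *IA-2* (0.725, with 48.67 reads per 1000 gene reads), replicate 8 for *bw* (0.732, with 24.11) and replicate 6 for CG32581 (0.745, with 433.3). In GMR/+ it was replicate 1 for CG7888 (0.792, with 78.08).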

How the results depend on the processing

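The number of short introns called depended mainly on what the junction reads were divided by. For GMR>prp4-RNAi against GMR/+ (22), GMR>prp8-RNAi against GMR/+ (15) and the comparison of the knockdowns (16), it was 6, 6 and 7 with diffSpliceDGE, which sets a junction against the others of its gene. With TMM library sizes in place of the gene count it was 242, 138 and 89, and with DESeq2 size factors 194, 117 and 92, since these count changes of whole genes. When a log2 fold change beyond 1 in either direction was also required, it was 3, 6 and 8, and with at least 500 reads 8 for the comparison of the knockdowns. With DESeq2 on the same ratio the counts were 24, 10 and 11, and with limma 22, 15 and 13. Leaving out introns with more junction than gene reads, a choice made after seeing the data, gave 21, 12 and 13.

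With each library left out in turn the counts were 14 to 29, 9 to 21 and 8 to 35. The lowest came without replicates 5 and 8, without replicate 13 and without replicate 11, and the comparison of the knockdowns also fell to 9 or 10 without replicate 8, 10, 12, 13 or 15. Its highest count, 35, came without replicate 14. The log2 ratio of the summed short introns was −0.015 for GMR>prp4-RNAi over GMR/+ (−0.019 to −0.012 with a library left out) and 0.0036 without the 100 genes with the most reads. For GMR>prp8-RNAi it was 0.00039 (−0.0036 to 0.0035).

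Directions turned in *Cyp12d1-p*, *w* and *Tsp42Ea*, whose gene counts differ between the groups. With TMM and with DESeq2 size factors the log2 fold change for GMR>prp4-RNAi was 1.32 in both for *Cyp12d1-p* and 3.51 in both for the 70-bp intron of *w*. For GMR>prp8-RNAi it was 0.93 with TMM for *Cyp12d1-p*, 3.22 in both for *w*, and −0.055 and −0.057 for the 63-bp intron of *Tsp42Ea*. The 66-bp intron of *Tsp42Ea* had −0.29 and −0.30, −0.083 with diffSpliceDGE and, in the comparison of the knockdowns, 0.027 with diffSpliceDGE. No paired analysis was possible because the groups share no replicate numbers. Depth limits introns under 300 reads, whose median SE was 0.255 on the log2 scale for GMR>prp4-RNAi.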
